A study of Mus musculus with 7 samples.

Results

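The genes described here, 10 in all, mark T cells and were followed in mouse skin with and without Tuft1. They are the constant genes of the T cell receptor chains (Trdc, Tcrg-C1, Trac, Trbc1 and Trbc2), the CD3 subunits Cd3d, Cd3e and Cd3g, the surface glycoprotein gene Thy1 and the granule gene Nkg7. They were taken by name, as 10 of the 56691 genes of the count table. Of these, 9 were found by symbol, and Tcrg-C1, which the table calls Trgc1, was found by its gene ID. Skin was taken from 3 Tuft1 knockout (KO) mice (mice 2, 3 and 4), whose skin looked healthy, and from 4 wild-type (WT) mice (mice 5, 6, 7 and 8). Beyond KO or WT, the labels used here give no allele, strain, age or skin site, and each mouse gave 1 library. Transcripts were counted from powdered frozen skin with QuantSeq, a kit that reads a tag near the 3' end of each polyadenylated transcript.

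Each T cell carries a receptor made of either an alpha and a beta chain or a gamma and a delta chain, and the receptor reaches the surface only together with the CD3 proteins. Mouse epidermis is known for its resident gamma-delta T cells, the dendritic epidermal T cells, which sit between keratinocytes, while the dermis also holds alpha-beta T cells and other gamma-delta T cells. Every such chain ends in a constant region, so its constant gene is read whichever variable segment was joined to it.

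Transcripts of all 10 genes were found, with Thy1, Trbc2 and Trdc at the highest mean levels in both groups, and Trac and Cd3e among the lowest. Levels are given as CPM, which are counts scaled to a common library size with edgeR's TMM factors. A tag marks the end of a transcript whatever its length, so CPM were not divided by length, and differences in level between genes also carry how well the annotated 3' ends cover the tags. By edgeR's quasi-likelihood test, 0 of the 10 genes was called at an adjusted p below 0.05, against 3 of the 12888 genes tested (0.0233%). DESeq2 and limma-voom also called 0 of the 10, against 123 and 22 of the 12888 genes. At an unadjusted p below 0.05, 0 of the 10 passed by edgeR, DESeq2 or limma-voom. Over all genes tested, 555 passed by edgeR (4.31%), 952 by DESeq2 and 845 by limma-voom. In none of the 10 did the KO and WT ranges stand apart, which they did in 888 genes tested (6.89%). Log2 fold changes, KO over WT, were above 0 in 5 genes and below 0 in 5, with a median of -0.17, against -0.01 over all genes tested.

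The libraries held 7846643, 9086523 and 7009237 counts in KO mice and 9256459, 8612027, 8768984 and 8490972 counts in WT mice. With 3 counts as the limit, a count of 0 allows up to 0.323 CPM in the deepest and 0.395 CPM in the shallowest library, for counting error only. Scatter between mice was wide, with a common biological coefficient of variation of 108%. Of 11657 tested genes that reached 100 counts in some library, 3472 (29.8%) had 0 in another, and so did Cd3d, Cd3e, Trbc1 and Nkg7. Tuft1 lay between 17.2 and 29.1 CPM in KO libraries and between 55.6 and 114 CPM in WT libraries. A 3' tag checks the labels only if the deletion reaches it, and the labels do not locate the deletion. The library of KO mouse 2 stood apart in hair keratin-associated protein genes, with counts in 45 of 58, while the other libraries had 2 to 4. Nothing in the labels says that the mice were of separate litters or batches.

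Some constant genes come as pairs that are near-identical over the coding part, which bears on how tags can be assigned. Over the coding part of their reference transcripts (GENCODE M21), Trbc1 and Trbc2 share 498 of 521 bases (95.6%), while their 3' untranslated parts, nearest to the tags, are 43.5% identical. Tcrg-C1 and Tcrg-C2 are 94.6% identical over the coding part and still 93.2% identical over the 3' untranslated part. The end of the Trbc coding part is shown for both genes, since most of the differing bases lie there. Positions are counted from 1 at the first base of the constant-region transcript, and capitals mark bases that differ between the copies.
Trbc1, bases 361 to 521: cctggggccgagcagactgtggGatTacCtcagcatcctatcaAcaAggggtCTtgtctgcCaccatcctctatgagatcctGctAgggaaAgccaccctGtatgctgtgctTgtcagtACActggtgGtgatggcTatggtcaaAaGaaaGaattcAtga
Trbc2, bases 361 to 521: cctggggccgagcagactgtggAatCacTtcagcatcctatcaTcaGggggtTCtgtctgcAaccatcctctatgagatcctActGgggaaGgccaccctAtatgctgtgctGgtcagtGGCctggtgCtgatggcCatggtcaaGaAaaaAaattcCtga
These stretches differ at 22 bases.

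The gamma constant genes are shown over the hinge, where Tcrg-C1 carries 15 bases that Tcrg-C2 lacks. Capitals again mark differing bases, including those absent from the other copy.
Tcrg-C1, bases 301 to 380: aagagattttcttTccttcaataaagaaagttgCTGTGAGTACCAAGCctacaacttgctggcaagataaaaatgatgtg
Tcrg-C2, bases 301 to 365: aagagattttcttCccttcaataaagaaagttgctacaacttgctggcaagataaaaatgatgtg
Outside the 15 bases, these stretches differ at 1 base. The sources used here do not say how reads that match both copies were counted, so the levels of Tcrg-C1, Tcrg-C2, Trbc1 and Trbc2 are uncertain to that extent.

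Trdc, the constant gene of the delta chain, lies at chr14:54380308-54386325 on the plus strand (mm39), inside the locus of the alpha chain and 71652 bases before Trac. Its level was 49.8, 49.1 and 16.8 CPM in KO mice 2, 3 and 4, and 26.2, 30.1, 72.7 and 120 CPM in WT mice 5, 6, 7 and 8. WT mice 7 and 8 were above every KO mouse and KO mouse 4 was below every WT mouse, while the other mice overlapped. The mean was 38.6 ± 18.8 CPM in KO and 62.2 ± 43.9 CPM in WT skin (SD, n = 3 and 4 mice). The log2 fold change was -0.69 (SE 0.58, 95% interval -1.93 to 0.56), with an adjusted p of 0.9997 by edgeR's quasi-likelihood test, so the difference was within the spread between mice. It was -0.16 without WT mouse 8 and -0.34 without KO mouse 4. Trdc exons overlap those of Trdv5 and Gm43434, both at 0 counts.

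Tcrg-C1, a constant gene of the gamma chain and the one used in the receptor of dendritic epidermal T cells, lies at chr13:19398273-19401194 on the plus strand. It was at 6.34, 22.2 and 3.81 CPM in KO mice 2, 3 and 4, against 42.7, 6.42, 30.2 and 13.1 CPM in WT mice 5, 6, 7 and 8. WT mice 5 and 7 were highest and KO mice 2 and 4 lowest, with KO mouse 3 inside the WT range. Means were 10.8 ± 9.95 CPM in KO and 23.1 ± 16.5 CPM in WT skin (SD, n = 3 and 4), a log2 fold change of -1.10 (SE 0.99, 95% interval -3.23 to 1.03, edgeR adjusted p = 0.9997). It was -2.18 without KO mouse 3, -0.62 without WT mouse 5 and -0.70 without KO mouse 4. The mouse with the most Trdc, WT mouse 8, was not the one with the most Tcrg-C1, which was WT mouse 5.

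Further gamma constant genes had fewer counts in total than Tcrg-C1. Tcrg-C2 had 48, 2 and 183 counts in KO mice 2, 3 and 4, and 78, 79, 87 and 34 counts in WT mice. Tcrg-C4, which differs more from Tcrg-C1 (70.6% identical over the coding part), had 61, 121 and 25 counts in KO mice and 187, 44, 85 and 0 counts in WT mice. Their log2 fold changes were 0.34 (SE 1.55) and -0.11 (SE 1.74), within the spread between mice. Tcrg-C3 had 0 counts in all 7 libraries. Tcrg-C1 made up 31.0%, 61.7% and 12.2% of the summed CPM of Tcrg-C1, Tcrg-C2 and Tcrg-C4 in KO mice 2, 3 and 4, and between 31.7% (mouse 6) and 75.7% (mouse 8) in WT mice. The sum of these 3 genes was 29.2 ± 7.93 CPM in KO and 40.0 ± 25.9 CPM in WT skin (SD, n = 3 and 4), with overlapping ranges.

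Trac, the constant gene of the alpha chain (chr14:54457978-54461663, plus strand), was sparse. It had 33, 0 and 14 counts in KO mice 2, 3 and 4, and 0, 35, 0 and 81 counts in WT mice 5, 6, 7 and 8. Its mean was 2.04 ± 2.14 CPM in KO and 3.49 ± 4.74 CPM in WT skin (SD, n = 3 and 4). It was not detected in 1 KO and 2 WT libraries, which allows levels of up to 0.336 CPM in KO mouse 3, 0.323 CPM in WT mouse 5 and 0.368 CPM in WT mouse 7. With 163 counts over 7 libraries, its biological coefficient of variation was 238%, and a difference was not detectable given this scatter between mice. The log2 fold change of -0.77 had a standard error of 2.77 and a 95% interval of -6.77 to 5.22. Its sign turned with limma-voom (0.33) and without WT mouse 8 (0.63).

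Trbc1 and Trbc2, the alternative constant genes of the beta chain, lie side by side at chr6:41515152-41516815 and chr6:41523664-41525286 on the plus strand, with 6848 bases between them. Trbc2 was at 99.1, 94.3 and 53.3 CPM in KO mice 2, 3 and 4, and at 68.5, 79.6, 46.3 and 64.6 CPM in WT mice 5, 6, 7 and 8. KO mice 2 and 3 were above every WT mouse, and KO mouse 4 was inside the WT range. Its means were 82.2 ± 25.2 CPM in KO and 64.7 ± 13.8 CPM in WT skin (SD, n = 3 and 4), a log2 fold change of 0.35 (SE 0.34, 95% interval -0.38 to 1.07, edgeR adjusted p = 0.9997). It was 0.19 without KO mouse 2, 0.21 without WT mouse 7 and 0.57 without KO mouse 4. Together with Thy1, it had the narrowest interval of the 10 genes.

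Trbc1 was lower than Trbc2 in all 7 libraries. Its level was 5.18, 16.4 and 6.71 CPM in KO mice 2, 3 and 4, and 0, 6.19, 7.49 and 2.35 CPM in WT mice 5, 6, 7 and 8. KO mouse 3 was highest, and the other KO mice overlapped the WT mice. The log2 fold change was 1.23 (SE 1.94, 95% interval -2.96 to 5.42), within the spread between mice, and it was 0.57 without KO mouse 3, 0.81 without WT mouse 5 and 2.50 with limma-voom. Over all libraries Trbc1 gave 372 of the 4627 counts of the pair, or 8.04%, with 4.96%, 14.8% and 11.2% in KO mice and 7.22%, 13.9% and 3.51% in WT mice 6, 7 and 8. In WT mouse 5 it gave 0 of 636 counts, which allows a share of up to 0.472%.

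Within each mouse, the delta chain gene exceeded the alpha chain gene. Trdc had more counts than Trac in 3 of 3 KO and 4 of 4 WT libraries, and gave 3023 of their 3186 joint counts (94.9%). Beta chain tags also far outnumbered alpha chain tags, since Trac gave 163 of the 4790 counts of Trac, Trbc1 and Trbc2 (3.40%). Between Trbc2 and Trdc the order was not the same in every mouse. Trbc2 was higher in 3 of 3 KO and 2 of 4 WT libraries, the exceptions being WT mice 7 and 8.

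Gamma-delta genes (Trdc and Tcrg-C1) and alpha-beta genes (Trac, Trbc1 and Trbc2) were then summed. The gamma-delta sum was 56.2, 71.2 and 20.7 CPM in KO mice 2, 3 and 4, against 68.9, 36.5, 103 and 133 CPM in WT mice 5, 6, 7 and 8. The alpha-beta sum was 109, 111 and 61.8 CPM in KO mice and 68.5, 89.7, 53.8 and 77.0 CPM in WT mice. On average, the KO mice had 36.0 CPM less of the gamma-delta sum and 21.5 CPM more of the alpha-beta sum, with overlapping ranges for both. The gamma-delta difference was -20.1 CPM without WT mouse 8 and -21.6 CPM without KO mouse 4, and the alpha-beta difference was 37.4 CPM without KO mouse 4, 14 CPM without KO mouse 2 and 13 CPM without KO mouse 3. Gamma-delta genes took 34.1% (95% Clopper-Pearson interval 31.5 to 36.8), 39.2% (36.8 to 41.6) and 25.0% (21.7 to 28.6) of the counts of these 5 genes in KO mice 2, 3 and 4. In WT mice 5, 6, 7 and 8 they took 50.2% (47.4 to 52.9), 28.9% (26.3 to 31.7), 65.7% (63.0 to 68.3) and 63.4% (61.0 to 65.7). The share was therefore below that of 3 WT mice in every KO mouse, while WT mouse 6 lay inside the KO range. Tcrg-C2 and Tcrg-C4 are not part of this share. KO mouse 4 had 29 counts of Tcrg-C1, 183 of Tcrg-C2 and 25 of Tcrg-C4, and WT mouse 6 had 57, 79 and 44. The shares of these mice thus depend on which gamma genes are summed. It averaged 32.8 ± 7.19% in KO and 52.1 ± 16.9% in WT skin (SD, n = 3 and 4). The difference was -19.3 percentage points, and it lay between -27.0 and -14.7 when each mouse was left out in turn. Over all libraries, Trbc2 gave 4255 of the 4790 alpha-beta counts, and Trdc gave 3023 of the 4105 gamma-delta counts. The share thus mainly sets Trdc against Trbc2. Within the alpha-beta sum, log2 fold changes were 0.35 for Trbc2 and 1.23 for Trbc1, but -0.77 for Trac. These sums were made from chosen genes and were not tested. In whole skin, fewer cells of a type and less RNA per cell cannot be told apart.

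**Figure D1:**
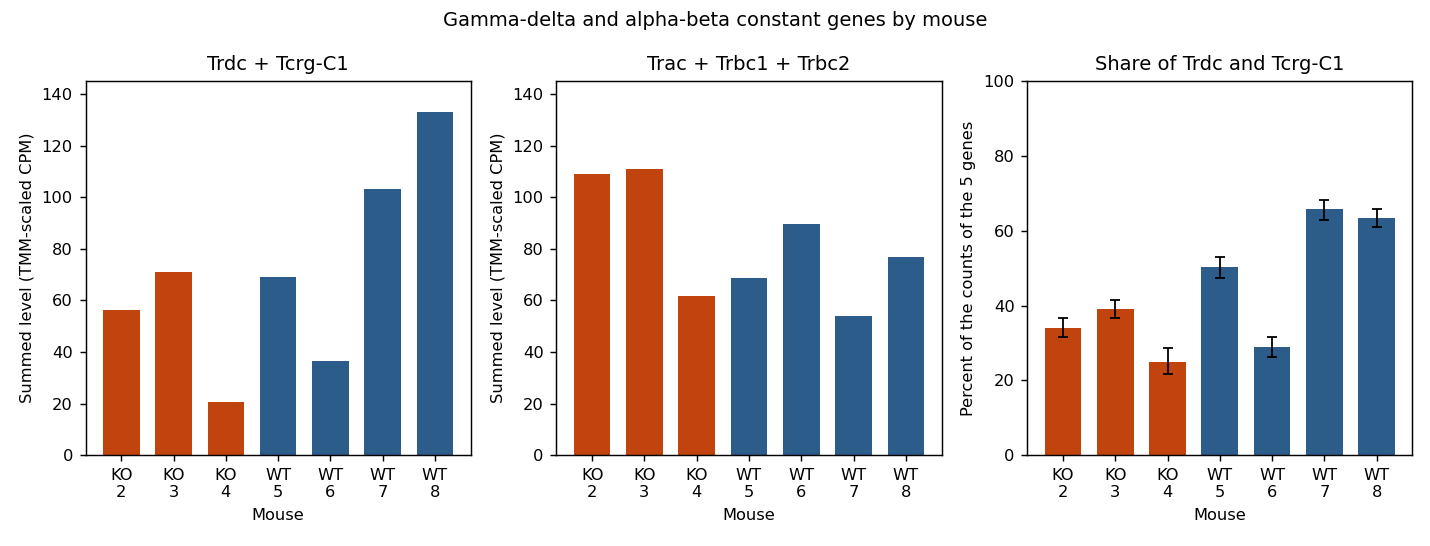
Summed level in CPM of Trdc and Tcrg-C1 (left) and of Trac, Trbc1 and Trbc2 (middle), and percent of the counts of these 5 genes that came from Trdc and Tcrg-C1 (right), with 1 bar per mouse, KO in orange and WT in blue, and 95% Clopper-Pearson intervals on the percent. The KO percentages lie between 25.0 and 39.2, and of the WT mice only mouse 6, at 28.9, lies among them.

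The rearranged variable part of these receptors could not be read. The table lists 262 variable, diversity and joining segments of the receptor loci, and all had 0 counts in all 7 libraries. Which gamma, delta, alpha or beta variable genes were used was thus not measured.

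The CD3 genes, whose products carry the receptor's signal into the cell, lie in 1 cluster on chromosome 9, with 1354 bases between Cd3g (chr9:44880870-44891729, minus strand) and Cd3d (chr9:44893084-44898637, plus strand) and 11400 bases between Cd3d and Cd3e (chr9:44910038-44920925, minus strand). Cd3g was the most abundant of them in total and the only one with counts in every library. It was at 12.4, 31.8 and 10.4 CPM in KO mice 2, 3 and 4, and at 4.95, 16.3, 19.4 and 11.6 CPM in WT mice 5, 6, 7 and 8. KO mouse 3 was highest and WT mouse 5 lowest, and the remaining KO mice lay inside the WT range. The log2 fold change of 0.48 (SE 0.95, 95% interval -1.58 to 2.54) was within the spread between mice, and was -0.20 without KO mouse 3.

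Cd3d, the delta subunit, was at 5.82, 0 and 10.1 CPM in KO mice, against 15.7, 3.83, 9.08 and 10.8 CPM in WT mice. Its groups overlapped, with a log2 fold change of -0.89 (SE 1.81, 95% interval -4.79 to 3.02), which was -0.31 without KO mouse 3, -1.76 without KO mouse 4, -0.57 without WT mouse 5 and -2.62 with limma-voom. Cd3e, the epsilon subunit found in every CD3 complex, had 33, 0 and 10 counts in KO mice and 197, 1, 0 and 40 counts in WT mice. Of its 281 counts, WT mouse 5 gave 197. The log2 fold change was -1.81 (SE 2.67, 95% interval -7.58 to 3.96), and it was 0.14 without that mouse. Exons of Cd3e overlap those of Gm48719, which had 0 counts. Summed over the subunits, CD3 genes were at 22.5, 31.8 and 21.8 CPM in KO mice and 41.9, 20.3, 28.5 and 27.4 CPM in WT mice. The sum averaged 25.4 ± 5.58 CPM in KO and 29.5 ± 9.01 CPM in WT skin (SD, n = 3 and 4). Cd247, the zeta subunit of the same complex, had 87, 62 and 232 counts in KO mice and 80, 267, 0 and 87 counts in WT mice, a log2 fold change of 0.39 (SE 1.41).

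**Figure D2:**
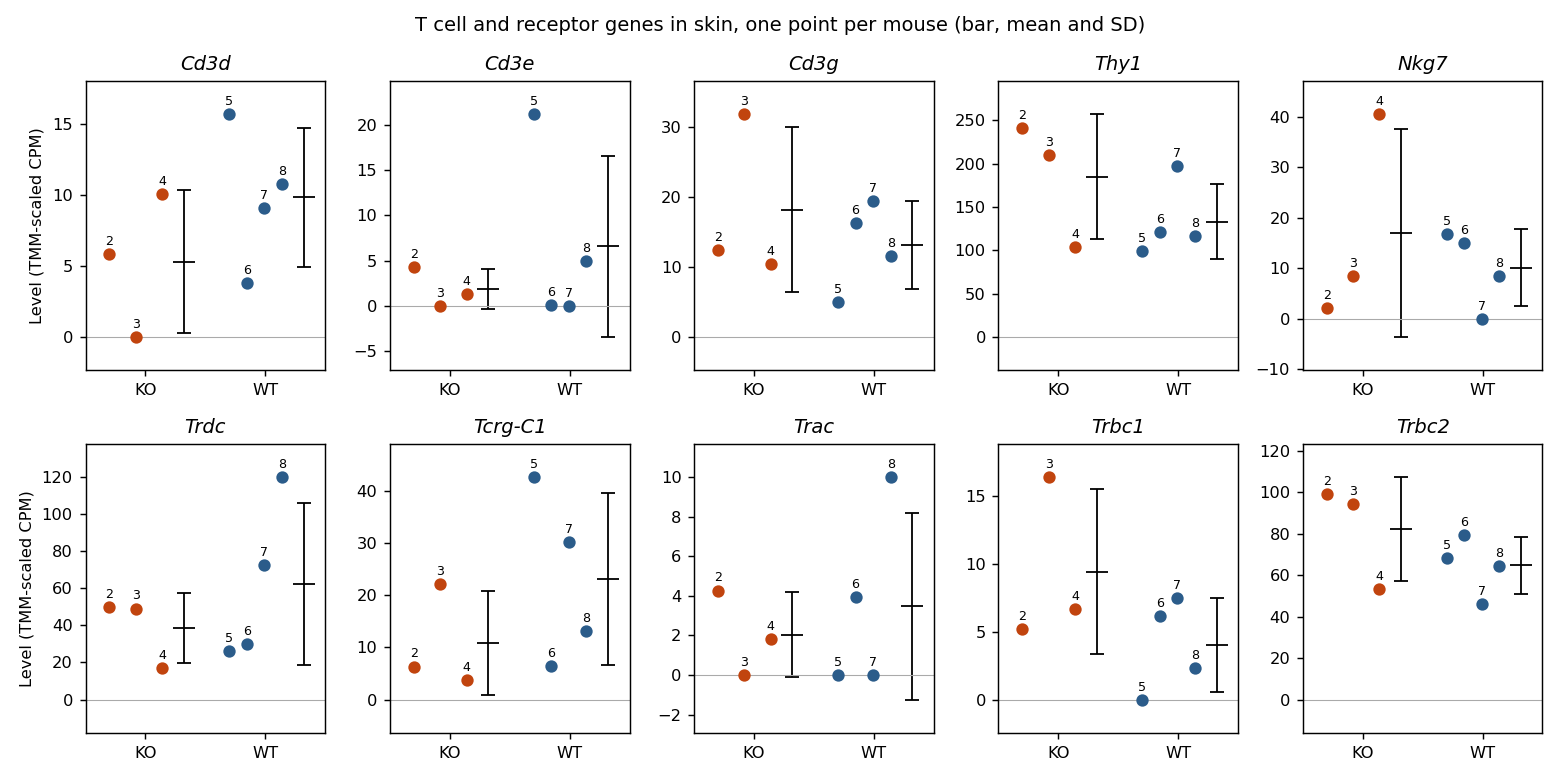
Level of each gene in CPM, with 1 point per mouse (numbers give the mouse), KO in orange and WT in blue, and a bar for the mean ± SD of each group of 3 and 4 mice. In each of the 10 panels the KO and WT points overlap, and Cd3d, Cd3e, Trac, Trbc1 and Nkg7 have at least 1 mouse at 0.

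Thy1, a surface glycoprotein of mouse T cells that fibroblasts and nerve cells also carry, lies at chr9:43954681-43959876 on the plus strand. It was at 241, 210 and 104 CPM in KO mice 2, 3 and 4, and at 98.7, 121, 197 and 116 CPM in WT mice 5, 6, 7 and 8. KO mice 2 and 3 were above every WT mouse, and KO mouse 4 lay near the lowest WT mice. With means of 185 ± 71.7 CPM in KO and 133 ± 43.7 CPM in WT skin (SD, n = 3 and 4), the log2 fold change was 0.48 (SE 0.33, 95% interval -0.23 to 1.18, edgeR adjusted p = 0.9997). It was 0.24 without KO mouse 2, and 0.76 without KO mouse 4 and 0.73 without WT mouse 7, the last 2 with unadjusted edgeR p-values of 0.0287 and 0.0478. Thy1 exceeded Trbc2 in all 7 libraries. Fibroblast markers, with counts for 8 of 8, summed to 28250, 15850 and 11303 CPM in KO mice and to 10804, 15121, 13393 and 18326 CPM in WT mice. Their sum was highest in KO mouse 2, as Thy1 was. The next highest sum was in WT mouse 8, where Thy1 was at 116 CPM. Most of both sums came from Col1a1, named after its values were seen. It was at 20392 CPM in KO mouse 2 and 13430 CPM in WT mouse 8, so the order of the sums is mainly that of Col1a1. Nerve and Schwann cell markers, with counts for 6 of 8 and with Prph and Nefl at 0, summed to 332 to 750 CPM in KO and 275 to 426 CPM in WT skin. Their part in the Thy1 level was not tested.

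Nkg7 (chr7:43086497-43087673, plus strand), a membrane protein of the cytotoxic granules of T and NK cells, was uneven in KO skin. Its level was 2.07, 8.51 and 40.5 CPM in KO mice 2, 3 and 4, and 16.8, 15.1, 0 and 8.54 CPM in WT mice 5, 6, 7 and 8. The highest value and, after the 0 of WT mouse 7, the lowest were both in KO mice. The log2 fold change was 0.75 (SE 1.5, 95% interval -2.49 to 3.99), and it was -0.94 without KO mouse 4.

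In the order of mean level, Thy1, Trbc2 and Trdc led in both groups. Thy1 and Trbc2 did not overlap in range in KO or in WT skin, and Trbc2 and Trdc did not overlap in KO skin, at 53.3 to 99.1 CPM against 16.8 to 49.8 CPM. In WT skin Trbc2 and Trdc overlapped, with means of 64.7 and 62.2 CPM. Every lower pair of neighbours in the order overlapped in both groups. Exact two-sided permutation tests of single genes over the 35 splits of the mice gave p-values of 0.229 (Trbc1) to 0.800 (Trac), where the smallest possible is 0.0286.

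**Figure D3:**
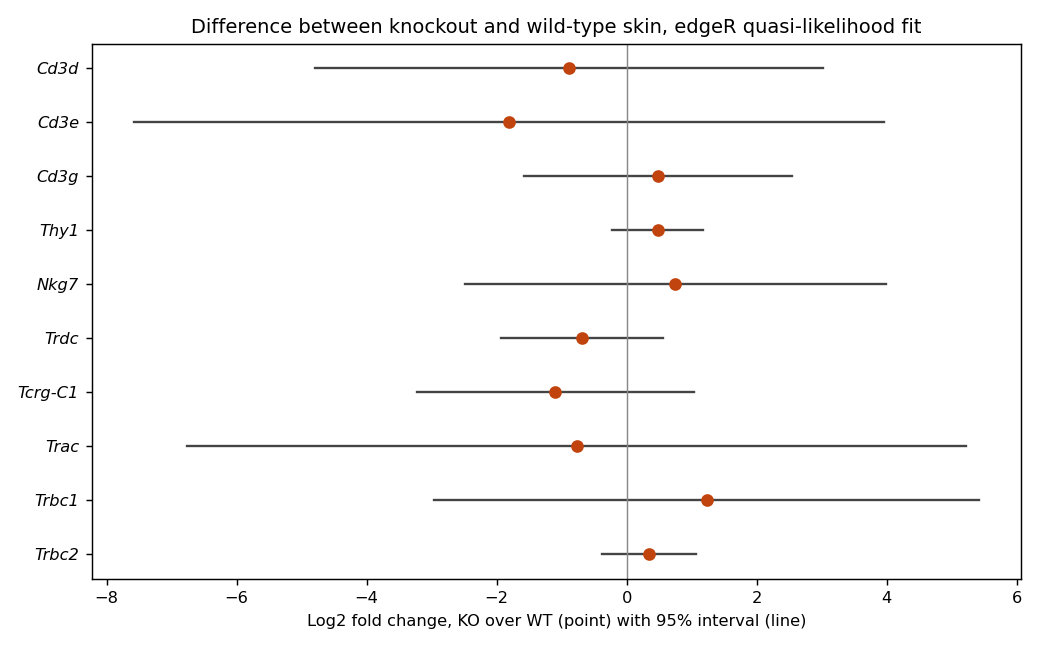
Log2 fold change, KO over WT, of each of the 10 genes (point) with its 95% interval (line) by edgeR's quasi-likelihood fit. All 10 intervals include 0, and those of Thy1 (-0.23 to 1.18) and Trbc2 (-0.38 to 1.07) are the narrowest.

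Genes whose pattern over the mice was most like that of Trdc, Trac or Cd3e came from outside the set of 10. Nearly all genes compared lie outside the set, so this says nothing about the set itself. Over the 7 libraries, likeness was measured as the root mean square difference between centred log2 CPM of 2 genes, among 12771 genes. The genes nearest to Trdc were Wdr43 (0.18), Hnrnph1 (0.26), Stradb (0.28), Pam16l (0.30) and Ripor1 (0.32), whereas Tcrg-C1 stood at rank 5624 with 1.21. Nearest to Trac were Chst3 (0.24), Tle2 (0.44), Adam8 (0.45), Reln (0.47) and Aldh5a1 (0.52). Those nearest to Cd3e were 2700046G09Rik (0.58), Tbx2 (0.75), Ppbp (0.77), Gstm7 (0.78) and Gm13483 (0.81), while Cd3d ranked 447 with 1.95 and Cd3g 9657. A gene at the same level in every mouse would stand at 0.878 from Trdc, 2.18 from Trac and 2.36 from Cd3e. Tcrg-C1 was further than that from Trdc, and Cd3g, at 3.05, was further than that from Cd3e. All distances come from the same 7 libraries, and for sparse genes such as Cd3e and Trac they rest mainly on which libraries had 0 counts.

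Other genes of T cells were described through 7 lists holding 114 genes, of which 86 had counts and 58 were tested. edgeR and limma-voom called 0 of the 58, and DESeq2 called 2 (Klrk1 and Skint10). Of all 12888 genes, edgeR called 3, limma-voom 22 and DESeq2 123. At an unadjusted p below 0.05 by edgeR, 1 gene was higher (Maf) and 3 were lower (Klrk1, Prf1 and Skint10), or 6.90% of the 58 against 4.31% of all genes tested. Ranges of the groups did not overlap in 9 of the 58 (15.5%), against 6.89% of all genes tested.

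Among 28 genes of receptor signalling, 22 had counts, 9 were tested, and 5 of these were above and 4 below 0. Ptprc, the CD45 phosphatase of all white blood cells, was at 23.6, 13.2 and 22.8 CPM in KO mice and 34.6, 33.0, 32.2 and 28.5 CPM in WT mice, without overlap (log2 fold change -0.69, SE 0.58). Prkcq, a protein kinase C of T cell and muscle signalling, had 294, 225 and 235 counts in KO mice and 75, 101, 0 and 85 counts in WT mice, also without overlap (log2 fold change 2.06, SE 1.18, edgeR adjusted p = 0.9997). Skeletal muscle markers summed to 16536 to 25880 CPM in KO and 15863 to 21909 CPM in WT skin, and their part in the Prkcq level was not tested. Bcl11b, a transcription factor of T cells that keratinocytes also express, and the Src-family kinase Fyn had log2 fold changes of -0.30 (SE 0.43) and 0.24 (SE 0.84).

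Of 12 genes of alpha-beta subsets, 4 were tested, with a median log2 fold change of 0.60. The abundant members were Gata3 (549 ± 58.2 CPM in KO and 639 ± 120 CPM in WT skin) and Ikzf2 (104 ± 23.9 CPM in KO and 78.6 ± 20.1 CPM in WT skin), transcription factors that cells other than T cells also express. Ccr4, a receptor of skin-homing T cells, had 54, 82 and 119 counts in KO mice and 0, 121, 42 and 45 counts in WT mice. Il7r had counts in 3 libraries and did not pass the filter on low counts. The coreceptor genes, chosen after their values were seen, were sparser still. Cd4 had 11, 80 and 0 counts in KO mice and 0, 0, 18 and 36 counts in WT mice. Cd8a had 52 counts in WT mouse 6 alone, and Cd8b1 had 56 counts in KO mouse 2 alone.

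Of 24 genes of epidermal and dermal gamma-delta T cells, 16 had counts and 15 were tested, 8 above and 7 below 0, with a median log2 fold change of 0.21. Il17a, Il17f, Il23r, Ccr6, Ccr8, Ccr10, Cd69 and Scart2 had 0 counts in all libraries. Maf, a transcription factor of gamma-delta T cells and of many other cells, was at 464 ± 44.1 CPM in KO and 315 ± 43.3 CPM in WT skin (SD, n = 3 and 4; log2 fold change 0.56, SE 0.20, edgeR adjusted p = 0.9997), without overlap. Sox13 and Fcer1g had log2 fold changes of 1.12 (SE 0.87) and 0.21 (SE 0.42). Klrk1, the NKG2D receptor by which dendritic epidermal T cells and NK cells see stressed cells, was chosen after its values were seen. It had 0 counts in all 3 KO libraries and 82, 18, 121 and 58 counts in WT mice 5, 6, 7 and 8. With 3 counts per library as the limit, the KO libraries lay at least 22.0-fold below the WT mean of 8.22 ± 5.29 CPM (SD, n = 4). This bound covers counting error only and not the scatter between mice. Of tested genes that reached 100 counts in some library, 29.8% had 0 in another. Klrk1 did not pass adjustment over all genes by edgeR (adjusted p = 0.9731), and was called by DESeq2, which called 123 of 12888 genes.

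Cytotoxic and NK cell genes numbered 13, of which 7 had counts and 4 were tested, with 1 above and 3 below 0 and a median log2 fold change of -1.51. The NK cell receptor genes Ncr1, Klrb1c and Klre1 and the granzyme genes Gzma and Gzmk had 0 counts in all libraries, as did Tbx21. Prf1, the pore-forming perforin of cytotoxic cells, had 11, 0 and 0 counts in KO mice 2, 3 and 4, and 182, 116, 122 and 53 counts in WT mice 5, 6, 7 and 8. Every WT mouse was above every KO mouse (log2 fold change -4.80, SE 2.21, edgeR adjusted p = 0.9997). Klrd1, the CD94 receptor chain, had 70, 0 and 0 counts in KO mice and 97, 63, 204 and 155 counts in WT mice, where KO mouse 2 overlapped the WT range (log2 fold change -2.35, SE 1.94). Ctsw, a protease of cytotoxic lymphocytes, averaged 9.84 ± 5.57 CPM in KO and 15.7 ± 2.55 CPM in WT skin (SD, n = 3 and 4). Ccl5, a chemokine that cytotoxic lymphocytes secrete, was the 1 tested gene above 0, with 75, 0 and 54 counts in KO mice and 0, 29, 40 and 0 counts in WT mice (log2 fold change 1.45, SE 2.65). The untested genes with counts, named after their values were seen, had them in 1 KO library each and 0 in all WT libraries. Gzmb had 59 counts in KO mouse 2, Eomes 65 in KO mouse 3 and Ifng 9 in KO mouse 4. Nkg7 had its highest value in KO mouse 4, where Prf1, Klrd1 and Klrk1 had 0 counts, and Ctsw and Ccl5 had 75 and 54.

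The Skint genes encode membrane proteins of the epidermis, among them Skint1, which dendritic epidermal T cells need for their selection in the thymus. All 11 had counts and 10 were tested, of which 1 was above and 9 were below 0, with a median log2 fold change of -0.52. Skint1, named after its values were seen, was the 1 above 0, at 6.60, 21.8 and 27.5 CPM in KO mice 2, 3 and 4 and 21.3, 14.3, 14.9 and 5.45 CPM in WT mice 5, 6, 7 and 8, with overlap (log2 fold change 0.42, SE 0.93). Skint10 was at 265, 112 and 87.7 CPM in KO mice 2, 3 and 4, and at 376, 282, 382 and 311 CPM in WT mice 5, 6, 7 and 8. Every KO mouse was below every WT mouse, with a log2 fold change of -1.12 (SE 0.34), which did not pass adjustment over all genes (edgeR adjusted p = 0.7931). It was called by DESeq2 (123 of 12888 genes called), and by edgeR without a filter on low counts (76 of 19128). Skint9 and Skint3 had log2 fold changes of -0.51 (SE 0.32) and -0.97 (SE 0.53), and Skint4 one of -0.03 (SE 0.56). Skint6, named after its values were seen, was also lower in every KO mouse than in every WT mouse (log2 fold change -2.80, SE 1.94). The summed level of the family was 829, 650 and 295 CPM in KO mice and 1030, 853, 1120 and 796 CPM in WT mice. KO mouse 4, the lowest, was also the mouse with the lowest Trdc. WT mouse 8, with the highest Trdc, had the lowest sum of the WT mice. General keratinocyte markers summed to 14883 to 15899 CPM in KO and 14246 to 17635 CPM in WT skin.

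Ligands and partners of skin T cells, 21 genes of which 13 were tested, were above 0 in 4 and below 0 in 9, with a median log2 fold change of -0.18. The most abundant was Cdh1, the E-cadherin that skin T cells bind through an integrin, with 797 ± 171 CPM in KO and 813 ± 59.8 CPM in WT skin (SD, n = 3 and 4). Ccl27a, a keratinocyte chemokine for skin-homing T cells, averaged 198 ± 9.90 CPM in KO and 273 ± 92.5 CPM in WT skin, with overlapping ranges. Plxnb2 and Cxadr, epidermal partners of receptors on dendritic epidermal T cells, had log2 fold changes of -0.18 (SE 0.29) and 0.02 (SE 0.36).

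**Figure D4:**
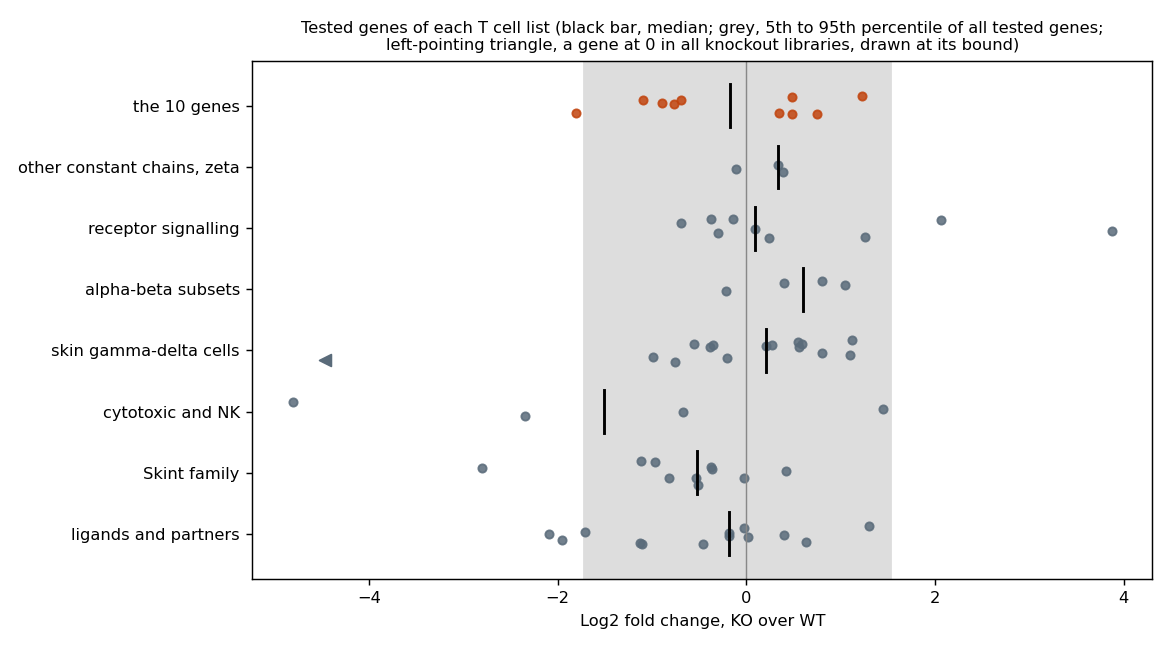
Log2 fold change, KO over WT, of the tested genes in the set of 10 (orange) and in the 7 lists of other T cell genes (grey points), with the list median as a black bar and the range from the 5th to the 95th percentile of all tested genes shaded (-1.72 to 1.54). The triangle marks Klrk1, at 0 in all KO libraries, drawn at its bound of -4.46, which covers counting error only. Of the 10 genes, 9 lie inside the shaded range.

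Markers of other cells that skin can hold were read beside these genes. B and plasma cell markers had counts for 3 of 9, with Cd79a, Cd79b, Ms4a1, Mzb1 and Pax5 among those at 0, and summed to 134 to 430 CPM in KO and 77.8 to 244 CPM in WT skin. That sum came mostly from the immunoglobulin genes Ighm and Igkc, named after their values were seen, which had counts in all 7 libraries. Igkc had 760, 54 and 2318 counts in KO mice 2, 3 and 4, and 107, 680, 3 and 1 counts in WT mice 5, 6, 7 and 8, with overlap between the groups (log2 fold change 2.62, SE 1.39, edgeR adjusted p = 0.9997). Ighm lay at 47.8 to 128 CPM in KO and 77.4 to 194 CPM in WT skin, also with overlap. Lymph node markers, with counts for 5 of 6 and Madcam1 at 0, summed to 19.9 to 89.2 CPM in KO and 7.61 to 58.2 CPM in WT skin. Macrophage markers, with counts for 10 of 10, summed to 473 to 1199 CPM in KO and 415 to 740 CPM in WT skin. Fat cell markers, with counts for 8 of 8, summed to 2932 to 5297 CPM in KO and 7737 to 13427 CPM in WT skin, and hair follicle markers, with counts for 8 of 9 and Shh at 0, to 528 to 1000 CPM in KO and 170 to 352 CPM in WT skin. These last 2 did not overlap between the groups, and their part in the levels of the T cell genes was not tested. Of the hair follicle markers, named after their values were seen, Lhx2, Sox9 and Lgr5 had counts in all 7 libraries. Krt71, Krt25, Krt27 and Krt86 had counts in KO mouse 2 alone, and Krt31 had 155 there and 1 in WT mouse 5.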

How the data were processed

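The members and the lists of other genes were chosen with earlier results of these data known. Raw counts, whole numbers per gene and library, were deposited by the authors for 7 skin libraries. Tools in the submitters' processing notes are STAR, featureCounts, Subread 2.0.3, GATK 4.2.4.0 and edgeR 3.36.0, with the mm39 build. The use of strand in counting and the treatment of duplicate and multiply matching reads are not given in the sources used here. The authors also deposited log2 values of 12954 genes. All 90678 of them were recovered from the raw counts as TMM log2 CPM with a prior count of 2 (tolerance 1e-06), and that table served for this check alone.

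Of 19128 genes with any count, 12888 passed edgeR's filter (minimum count 10), including all 10 members. Groups were compared in edgeR 4.0.16 (R 4.3.3) with TMM factors and the quasi-likelihood F test, with p-values adjusted by Benjamini-Hochberg over the 12888 genes and a threshold of 0.05. The fit was tested on simulated data. Single genes were also compared by an exact two-sided permutation test over 35 splits of the mice. Intervals of shares are 95% Clopper-Pearson intervals and cover counting error only, since reads without molecular identifiers are not independent molecules. The p-values set the group difference against the spread between these mice and treat the mice as independent. The labels do not say that the mice came from separate litters or cages, so that independence could not be checked. Alternatives were DESeq2 1.42.0, limma-voom (limma 3.58.1), other scaling factors, other filters and leaving out each mouse.

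Besides the members, the text names up to 4 genes of each T cell list with the most counts and all called ones, listed genes at 0 in all libraries, and the 5 genes at an average log2 CPM of at least 1 most like Trdc, Trac and Cd3e. Genes outside this rule are marked, apart from counts of 5 or fewer whose genes are named, and a gene under the rule is not reported here. Sequences come from GENCODE M21 transcripts (GRCm38), aligned with Biopython 1.88, and coordinates from the deposited table (mm39).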

Additional observations from a re-analysis of the deposited data

Results flagged for a closer look

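In each of the 10 genes, the listed genes taken for their counts and the summed levels, the 4 WT values were searched for a mouse far from the other 3, by the gap to the nearest mouse as a part of the whole range. Of 40 such groups, 2 held one, and chance alone gives about 1 in 20, or 2.0. For Nkg7 this was WT mouse 7, whose log2 CPM was -2.07 where the other WT mice had 3.13 to 4.09. For Prkcq it was again WT mouse 7, at -2.07 where the others had 3.06 to 3.54. Both genes had 0 counts in that library.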

How the results depend on the processing

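Under 13 alternatives, 0 of the 10 genes was called, and the lowest adjusted p was 0.6022, without a filter on low counts. Of 126 log2 fold changes recomputed, 121 had the direction of the main fit. The sign turned in 5: Trac with limma-voom (0.33) and without WT mouse 8 (0.63), Cd3g without KO mouse 3 (-0.20), Nkg7 without KO mouse 4 (-0.94) and Cd3e without WT mouse 5 (0.14). The cause was not tested. With each mouse left out in turn, Trdc ran from -0.94 to -0.16, Tcrg-C1 from -2.18 to -0.62, Trbc1 from 0.57 to 1.72, Trbc2 from 0.19 to 0.57, Thy1 from 0.24 to 0.76 and Cd3d from -1.76 to -0.31. The ranges of the genes that turned sign were -3.30 to 0.14 for Cd3e, -0.20 to 0.75 for Cd3g, -1.91 to 0.63 for Trac and -0.94 to 1.27 for Nkg7. Without KO mouse 4 or WT mouse 7, 1 of the 10 genes (Thy1) had an unadjusted p below 0.05. The filter at a mean of 10 CPM left out Cd3d, Cd3e, Trac and Trbc1, so it gave no value for them. Over all genes, 3 were called by edgeR, 123 by DESeq2, 22 by limma-voom and 76 where low counts were not filtered, and 0 to 1 with a mouse left out. Of the other T cell genes, DESeq2 called 2 (Klrk1 and Skint10) and the fit without a filter 1 (Skint10), while the remaining alternatives called 0. The gamma-delta sum differed by -52.3 to -20.1 CPM, the alpha-beta sum by 13 to 37.4 CPM and the gamma-delta share by -27.0 to -14.7 points with a mouse left out, and none turned sign.

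No paired analysis was possible because the KO and WT mice share no numbers. With 3 and 4 mice and 163 counts of Trac or 281 of Cd3e in all, intervals span changes of several log2 units in either direction. Biological coefficients of variation were 238% for Trac and 215% for Cd3e. A difference of several log2 units was not detectable given this scatter between mice.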

Other observations

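Mast cell markers, a resident immune cell type of the dermis that the text has not described, had counts for 6 of 6 genes and summed to 484 to 614 CPM in KO and 302 to 384 CPM in WT skin, without overlap between the groups. Langerhans and dendritic cell markers, with counts for 9 of 10 and Clec9a at 0, summed to 1907 to 3372 CPM in KO and 2116 to 2725 CPM in WT skin, with overlap. Neutrophil markers had counts for 2 of 6, with Ly6g, Retnlg, Csf3r and Mpo at 0 in all libraries. These sums were not tested.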
